A study of Rattus norvegicus with 6 samples.

Results

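The genes described here encode the endothelin system and the receptors and activating protease of the natriuretic peptides. They were listed by name: the endothelin arm holds Edn1, Ednra, Ednrb and Ece1, and the natriuretic arm holds Npr1, Npr2, Npr3 and Corin. A gene counted as measured when a probe set carried its symbol and no other in the array annotation. On that rule 5 of the 8 genes were measured, each by 1 probe set, out of 31042 probe sets and 14217 named genes on the array. These were Edn1 (1369519_at), Ece1 (1367801_at), Npr1 (1368201_at), Npr2 (1387099_at) and Npr3 (1369273_a_at). The other 3 genes, Ednra, Ednrb and Corin, had no probe set under that rule and were not analysed here, so both endothelin receptors are missing from what follows.

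Kidneys of adult male rats of 2 inbred strains were compared, with 3 rats and 3 arrays per strain. The congenic strain S.LEW(D1MCO4x1x3Bx1) carries a chromosome 1 segment of the Lewis (LEW) rat on the Dahl salt-sensitive background. The S strain is that background itself, the inbred Dahl salt-sensitive (SS/Jr) rat, in which dietary salt raises blood pressure. By its title the series belongs to a search for Adamts16 variants behind inherited hypertension. The segment holds other genes besides Adamts16, and none of the 8 genes listed is annotated on chromosome 1 in the GRCr8 gene table. The sources used here give no treatment and no diet.

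Endothelin and the natriuretic peptides both act on vessels and on salt. Endothelin 1 is made as a long precursor, trimmed by furin-like proteases and then by endothelin converting enzyme. It constricts vessels through the type A receptor on smooth muscle, whereas the type B receptor of the collecting duct promotes salt excretion. Atrial and brain natriuretic peptides bind the guanylyl cyclase Npr1 and C-type natriuretic peptide binds the guanylyl cyclase Npr2, and both receptors make cyclic GMP, which relaxes vessels and, in the kidney, favours sodium loss. Npr3 has no cyclase domain and clears all of these peptides from the circulation. Corin is the membrane protease that activates the atrial precursor.

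Differences were fitted with limma, a linear model, across the 15521 probe sets with a mean signal above the median. Edn1 and Npr3, under this filter on low signals, were read from a fit across all 31042. Of the 5 measured genes, none passed the adjusted threshold of p 0.05 in limma. That is also the share over the array, 0% of the 15521 probe sets with a mean signal above the median and 0% of all 31042, while unadjusted p below 0.05 was reached by 1602 of the 15521 and by 2462 of the 31042. The natriuretic receptors held the 2 genes whose strains did not overlap. Congenic values all below S values were found for 7.99% of the probe sets past the filter, and congenic values all above S values for 5.67% of all probe sets. Npr2 was lower in every congenic kidney than in every S kidney, at 0.736-fold, and Npr3 was higher in every congenic kidney, at 2.37-fold, but with S signals near the floor set for low values. Npr1, Edn1 and Ece1 overlapped between the strains. All values below are scaled array signals on a linear scale in arbitrary units, and probe sets bind with different strength, so signals of different genes are not set against each other.

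**Figure D1:**
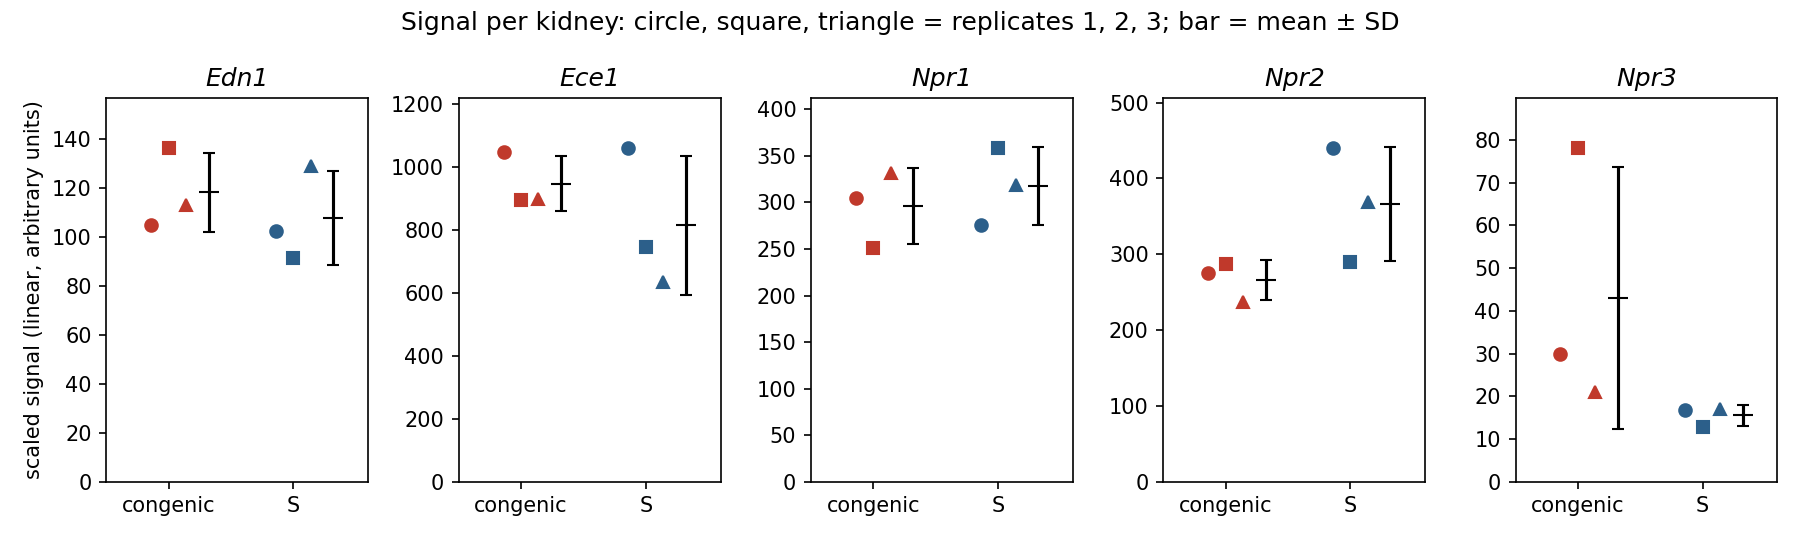
Scaled signal (linear, arbitrary units) of the 5 measured genes in each kidney, congenic on the left and S on the right of each panel. Symbols are rats and bars are the mean ± SD of 3 rats. The strains separate for Npr2 and Npr3, where congenic replicate 2 stands at 78.1, and overlap for Edn1, Ece1 and Npr1.

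In the endothelin arm, Edn1, the ligand, read 105, 136 and 113 in congenic kidneys, against 102, 91.5 and 129 in S kidneys. The strains overlapped, with the highest value in a congenic and the lowest in an S kidney. The means were 118 ± 16.2 in congenic and 108 ± 19.2 in S kidneys (SD, n = 3 each), a fold of 1.10 with a 95% interval of 0.717 to 1.70. Its mean stood at percentile 42.2 of all probe sets, under the filter on low signals, so its difference was taken from the fit of all 31042 probe sets (limma adjusted p = 0.898; exact permutation test, 2-sided p = 0.4). With 3 arrays per strain, an interval of this width leaves room for a change in Edn1 of up to 1.70-fold upward or to 0.717-fold downward. Its log2 difference of 0.14 was 0.03 when either congenic replicate 2 or S replicate 2 was left out. It was 0.22 with congenic replicate 1 left out and 0.28 with S replicate 3 left out.

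Ece1, the converting enzyme that completes endothelin 1, stood at percentile 82.4 of all probe sets. It read 1046, 895 and 898 in congenic kidneys, against 1059, 747 and 636 in S kidneys. S replicate 1 was the highest of all 6, and the other 2 S kidneys lay below every congenic one, so the strains overlapped through 1 rat. The spread was 9.15% of the mean in congenic and 27.0% in S kidneys. The means were 946 ± 86.6 in congenic and 814 ± 220 in S kidneys (SD, n = 3 each), a log2 difference of 0.25 (SE 0.16, 95% interval -0.09 to 0.59, limma adjusted p = 0.608). The exact permutation test gave a 2-sided p of 0.4. S replicate 1 had much weight in this value: without it the log2 difference was 0.45 with unadjusted p = 0.00416, though the limma adjusted p was still 0.202, and without S replicate 3 it was 0.09. Both measured genes of the arm, 1 of them past the filter, had positive log2 differences, with a median of 0.19, against a median of 0.01 over the 9334 named genes past the filter. Both 95% intervals included no change, and a median of 2 genes does not describe a shift of the arm.

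In the natriuretic arm, Npr1, the cyclase receptor for atrial and brain natriuretic peptides, read 304, 252 and 332 in congenic kidneys, against 275, 358 and 319 in S kidneys. The highest and the lowest of the congenic values enclosed 2 of the 3 S values. The means were 296 ± 40.9 in congenic and 318 ± 41.5 in S kidneys (SD, n = 3 each), a fold of 0.931 with a 95% interval of 0.711 to 1.22 (limma adjusted p = 0.877; exact permutation test, 2-sided p = 0.6). Its log2 difference of -0.10 became 0.01 without congenic replicate 2, the lowest of the 6 values, so that its sign rested on that rat.

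Npr2, the cyclase receptor for C-type natriuretic peptide, had the smallest unadjusted p of the 5 genes. It read 276, 287 and 237 in congenic kidneys, against 440.0, 290.4 and 368 in S kidneys. Every congenic value was below every S value, but congenic replicate 2 and S replicate 2 differed by little. The means were 267 ± 26.6 in congenic and 366 ± 74.8 in S kidneys (SD, n = 3 each). On the log2 scale they differed by -0.44 (SE 0.19, 95% interval -0.85 to -0.04), with unadjusted p = 0.0344 and adjusted p = 0.450 in limma. The exact permutation test gave p = 0.1, the smallest a 2-sided test of 3 against 3 can give. At unadjusted p below 0.05 and a lower congenic signal there was thus 1 of the 3 members past the filter, where the share over all probe sets past it was 5.61%. Without S replicate 1, the highest of the 6, the log2 difference was -0.30 with unadjusted p = 0.168. Its unadjusted p was also above 0.05 after quantile normalisation (0.0523), cyclic loess (0.0567) or median centring of the arrays (0.0673), with log2 differences of -0.40, -0.39 and -0.37.

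Npr3, the clearance receptor, read 30.0, 78.1 and 21.0 in congenic kidneys, against 16.8, 12.8 and 17.1 in S kidneys. Every congenic value was above every S value, and congenic replicate 2 stood far above the other 5 kidneys. The means were 43.0 ± 30.7 in congenic and 15.6 ± 2.42 in S kidneys (SD, n = 3 each). The mean stood at percentile 13.5 of all probe sets, and the S values lay just over the floor of 12.3 below which values were raised before taking logs. No detection calls were used, so these signals could not be separated from background. Fitted with all probe sets, Npr3 differed by 1.25 on the log2 scale (SE 0.51, 95% interval -0.04 to 2.53, limma unadjusted p = 0.0548, adjusted p = 0.635). The exact permutation test gave p = 0.1, again its smallest value. Without congenic replicate 2 the log2 difference was 0.70. With a pseudocount of 16 in place of the floor it was 0.78.

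**Figure D2:**
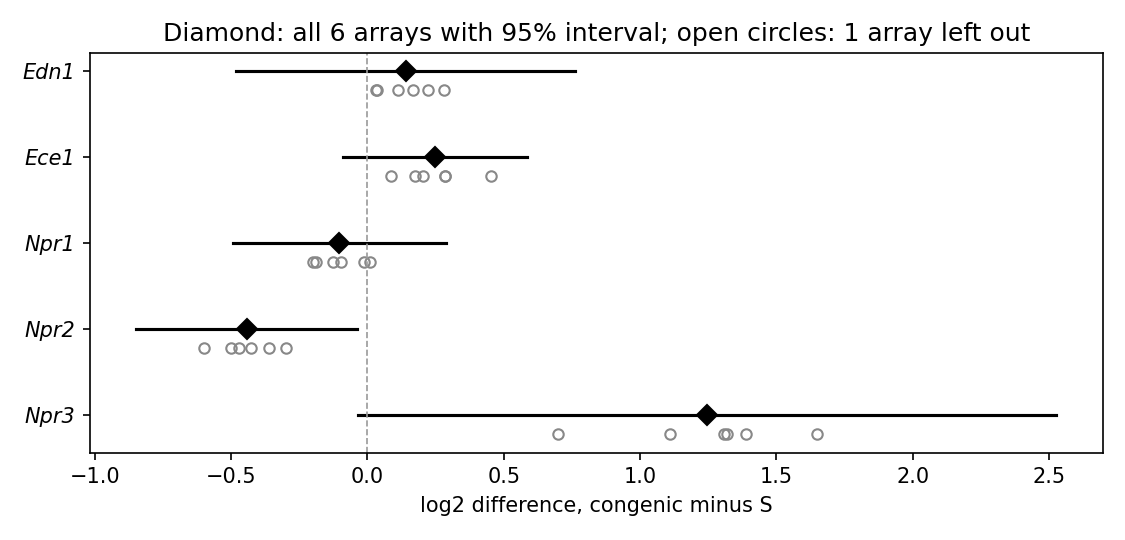
Log2 difference of the 5 measured genes, congenic minus S, with the 95% interval of the fit to all 6 arrays (diamonds and lines) and the values with each array left out in turn (open circles). The interval lies below 0 for Npr2 alone, from -0.85 to -0.04, and that of Npr3, from -0.04 to 2.53, is the widest.

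The 3 measured natriuretic receptors thus went both ways, 1 with a positive and 2 with negative log2 differences, with a median of -0.10. Ratios of their signals within an array were compared next, because they do not depend on how the arrays were scaled. The absolute size of such a ratio reflects the probes too, so only its difference between strains can be read. The log2 ratio of the cyclase receptors, Npr1 over Npr2, was 0.14, -0.19 and 0.49 in congenic kidneys, against -0.68, 0.30 and -0.21 in S kidneys. These values overlapped, with a difference of 0.34 (exact permutation test, 2-sided p = 0.4, adjusted p = 0.4 over the 3 ratios computed). Leaving out S replicate 1 gave 0.10, leaving out congenic replicate 3 gave 0.17 and leaving out S replicate 2 gave 0.59. The ratios of Npr1 and of Npr2 over Npr3 were also computed, but their denominator could not be separated from background, so they hold no evidence beyond the Npr3 signals above and are not read further.

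The other genes of both pathways were then examined from lists of their ligands, processing enzymes and signalling partners. Of 49 genes listed, 43 were measured and 29 were past the filter, of which 11 had positive and 18 negative log2 differences, with a median of -0.06. None passed the adjusted threshold in limma. At unadjusted p below 0.05 there were 2 with lower congenic signals and 0 with higher ones, where the shares over all probe sets past the filter were 5.61% and 4.72%. In the endothelin list, which shares Furin and Mme with the natriuretic list, 19 of 24 measured genes were past the filter, 8 positive and 11 negative with a median of -0.09. In the natriuretic list 12 of 21 were past the filter, 3 positive and 9 negative with a median of -0.04.

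Furin, the protease that makes the first trim of the endothelin 1 precursor and also cuts the brain natriuretic peptide precursor, read 1353, 1346 and 1275 in congenic kidneys, against 1492, 1399 and 1844 in S kidneys. All congenic values were lower, though S replicate 2 was close to them. On the log2 scale it differed by -0.24 (SE 0.11, limma unadjusted p = 0.0422, adjusted p = 0.470). Pcsk6, a related protease that activates corin, read 380, 368 and 398 in congenic kidneys, against 541, 459 and 420 in S kidneys, again without overlap. Its log2 difference was -0.30 with a 95% interval of -0.62 to 0.02 (limma adjusted p = 0.507).

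Downstream of the endothelin receptors, Gnai2, an inhibitory G protein alpha subunit, had the smallest unadjusted p of both lists. It read 1579, 1552 and 1482 in congenic kidneys, against 1876, 1771 and 1790 in S kidneys. Each congenic value was below each S value, with a log2 difference of -0.24 and a standard error of 0.09 (limma unadjusted p = 0.0162, adjusted p = 0.377). Rhoa, the small GTPase that raises smooth muscle tone, had -0.15, and Itpr1, a calcium release channel of the endoplasmic reticulum, had -0.13, with adjusted p of 0.579 and 0.583 in limma. The 95% intervals of both reached above 0.

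**Figure D3:**
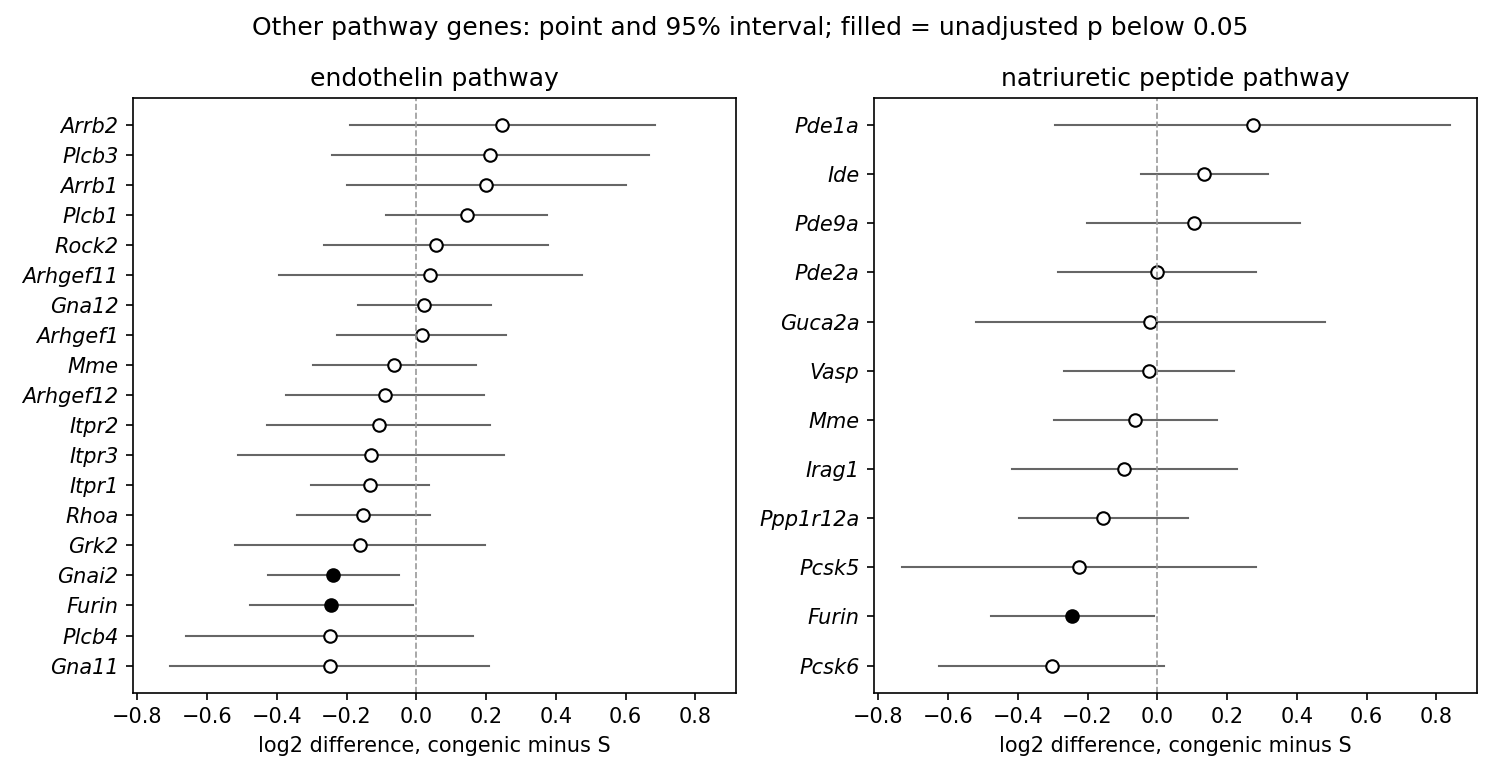
Log2 difference, congenic minus S, with its 95% interval for the other endothelin genes (left, 19) and natriuretic peptide genes (right, 12) past the filter on low signals, ordered by size. Filled points, Gnai2 and Furin, had unadjusted p below 0.05, and no gene passed the adjusted threshold.

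The genes of the atrial, brain and C-type natriuretic peptides lay under the filter. Nppc, which encodes the C-type peptide that Npr2 binds, read 61.4, 74.1 and 83.7 in congenic kidneys, against 14.1, 48.5 and 56.9 in S kidneys. The congenic values were all higher and S replicate 1 was the lowest. The log2 difference of 1.10 had a 95% interval of -0.39 to 2.59 (limma adjusted p = 0.680). Gucy2c, the guanylyl cyclase receptor for guanylin and uroguanylin, read 48.6, 55.8 and 51.4 in congenic kidneys, against 55.2, 13.5 and 12.7 in S kidneys. S replicate 1 was among the congenic values. The log2 difference of 1.29 had a 95% interval of -0.25 to 2.83 (limma adjusted p = 0.649). Gucy2c also lay under the filter, at percentile 19.5 of all probe sets, and Nppc stood at percentile 26.9. The S values of 13.5 and 12.7 for Gucy2c and of 14.1 for Nppc were close to the floor set for low values. Without detection calls, the signals of both genes could not be separated from background.

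The following ligands and enzymes were picked for their roles after their values had been seen. Nppa and Nppb, the atrial and brain peptide genes made mainly in the heart, had means of 49.0 ± 41.9 and 52.6 ± 42.8 in congenic kidneys, against 33.7 ± 22.2 and 43.4 ± 12.7 in S kidneys (SD, n = 3 each). The individual kidneys of each strain spread more widely than the strains differed. Signals lay under the floor in 2 kidneys for Nppa and in 1 for Nppb. Edn2, a second endothelin gene, was under the floor in all 6 kidneys. Ece2, a relative of Ece1, read 82.9, 104 and 80.9 in congenic kidneys, against 107, 121 and 139 in S kidneys. It was thus lower in each congenic kidney, but lay under the filter, at percentile 40.8 of all probe sets. Its log2 difference was -0.46 with a 95% interval of -1.07 to 0.15 (limma adjusted p = 0.674), and its other probe set had -1.12. Ece1 had a positive difference, and the intervals of both enzymes included no change. Mme, the gene of neprilysin, a brush border enzyme that degrades natriuretic peptides and endothelin, read 4904 ± 593 in congenic and 5130 ± 697 in S kidneys (SD, n = 3 each), a log2 difference of -0.06 with a 95% interval of -0.30 to 0.17.

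The genes whose signal followed a member most closely over the 6 arrays were found among 12418 named probe sets past the filter. For Ece1 they were Arih2, Ap1s1 and Rcc1l, with Pearson correlations of 0.996, 0.990 and 0.990. For Npr2 they were Crk, Nup62 and Tmem88, with 0.994, 0.984 and 0.973. With 6 arrays and so many probe sets, correlations of this size describe these arrays and no more.

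The arrays were alike in overall signal, with medians of 162 to 174 in congenic and 170 to 178 in S kidneys. Tubule markers of kidney were strong, with Slc34a1, the proximal phosphate transporter, at 30858 ± 2390 in congenic and 27259 ± 2726 in S kidneys (SD, n = 3 each). In whole kidney RNA, fewer cells of a type and less RNA per cell cannot be told apart, so markers of the cells that carry these receptors were listed beside them. Of 10 smooth muscle and mesangial markers past the filter, 7 had negative log2 differences, as Npr2 did, with a median of -0.19. Among them Acta2, the smooth muscle actin, had -0.36, Itga8, a mesangial integrin, -0.45 and Smtn, a contractile protein, -0.32, and these 3 had unadjusted p below 0.05 in limma, where 5.61% of the probe sets past the filter had unadjusted p below 0.05 with a lower congenic signal. None passed the adjusted threshold. The 3 with positive log2 differences were Gata3 at 0.38, Myl9 at 0.07 and Tagln at 0.03. Cnn1 and Lmod1, 2 further markers, were under the filter. The summed signal of the 12 markers measured was 6112 to 6801 in congenic and 6343 to 7424 in S kidneys, so the strains overlapped. Their part in the Npr2 difference was not tested.

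Of 13 endothelial markers, 6 were positive and 7 negative, with a median of -0.10. Their summed signal was 14732 to 15364 in congenic and 15648 to 16151 in S kidneys, without overlap. A linear sum gives most weight to the strongest signals, here Plvap and Emcn, and each of these genes overlapped between the strains. Vwf, the von Willebrand factor gene, had a positive log2 difference of 0.63 (limma unadjusted p = 0.00821, adjusted p = 0.305). Podocyte markers, of which 4 of 7 were positive, had a median of 0.002 and sums of 6011 to 6828 in congenic and 5953 to 6610 in S kidneys. The collecting duct markers had a median of 0.01, with 5 of 10 positive past the filter and sums of 21366 to 23584 in congenic and 19788 to 22551 in S kidneys. Of 8 stromal markers 6 were negative, with a median of -0.04. Proximal tubule markers had a median of 0.14 with 9 of 12 positive, and those of the loop of Henle and distal tubule -0.10 with 5 of 7 negative. At unadjusted p below 0.05 in limma there were 3 proximal markers with higher congenic signals, and of the loop and distal markers 1 with a higher and 2 with lower ones. Podocyte markers had 1 lower, collecting duct markers 1 higher and stromal markers 0, and no marker passed the adjusted threshold. Among all probe sets past the filter, 4.72% had unadjusted p below 0.05 with a higher congenic signal and 5.61% with a lower one. The 3 erythrocyte markers past the filter all had negative log2 differences and unadjusted p below 0.05, the smallest being 0.00126 for the haemoglobin gene Hba-a3 (adjusted p = 0.218), with a median of -0.55, and the summed signal of the 5 measured was 10911 to 18214 in congenic and 17232 to 24581 in S kidneys. Adrenal and adipocyte markers each had 1 gene past the filter and 4 under it, with sums of 515 to 728 and 800 to 1997 in congenic kidneys, against 469 to 606 and 706 to 1806 in S kidneys. The part of these cell types in the endothelin and natriuretic values was not tested either.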

How the data were processed

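Kidney RNA was hybridised to 1-colour Affymetrix arrays, 1 per rat, 3 congenic and 3 S. The authors deposited 1 linear intensity per probe set and array, made with GCOS 1.4 (submitters' processing notes). No setting or detection call of that software is given in the sources used here. Each array's mean after trimming 2% at both ends was close to 500.2, so no further scaling was applied. From 31042 probe sets left without 57 controls, values under the 10th percentile (12.3) were set to that value before the log2 transform. The 15521 above the median were tested with limma 3.58.1 in R 4.3.3 (lmFit, eBayes with an intensity trend), congenic minus S, with Benjamini-Hochberg adjustment. Genes under that filter were read from a fit of all probe sets. Symbols came from the array annotation, updated by Entrez identifier through the GRCr8 gene table. Probe sets with several symbols (436) were left unnamed. A gene with several probe sets was represented by the one of highest mean.

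The fit was tested on 5 simulated data sets with independent normal noise, 200 probe sets being changed in each. They covered only probe sets past the filter, so the fit used for Edn1 and Npr3 was not tested. The members and lists were chosen with earlier results of these data known. From each pathway list the 4 genes of smallest unadjusted p were named, and for the member of smallest p in each arm the 3 most alike genes. The ratio of Ednra over Ednrb was planned and could not be computed. Alternatives covered the floor, a pseudocount of 16, the filter, normalisation, variance trend, array weights, the number opening each array title and each array left out. Replicate numbers do not pair the strains. Figures were drawn with matplotlib 3.10.9.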

Additional observations from a re-analysis of the deposited data

How the results depend on the processing

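None of the 5 genes passed the adjusted threshold under any of the 15 alternatives, with limma adjusted p from 0.398 to 0.733 for Npr2 and from 0.576 to 0.815 for Npr3. Over all probe sets tested, 9 passed it with median centring, 6 without congenic replicate 1 and 3 without congenic replicate 3. Without S replicate 1 there were 41, and under every other alternative there were 0. Directions were kept under all of them for Edn1, Ece1, Npr2 and Npr3, and for Npr1 over Npr2 under the 9 alternatives run on it. The 1 reversal was Npr1, whose log2 difference ran from -0.20 to 0.0102 with 1 array left out, the highest value being that without congenic replicate 2. The count of natriuretic members at unadjusted p below 0.05, 1 as reported, was 0 without the filter on low signals and 0 after quantile normalisation. It was 2, Npr2 and Npr3, with array weights and without congenic replicate 2. Leaving out either S replicate 1 or S replicate 3 gave 0. It stayed at 1, but Npr3 in place of Npr2, with median centring, with cyclic loess and without congenic replicate 3. The endothelin count, 0 as reported, was 1 (Ece1) without S replicate 1 and 0 in the 5 other fits with an array left out. Apart from the fit without the filter, the share of all probe sets at unadjusted p below 0.05 was not computed for these alternatives. With 1 array left out the log2 difference of Npr2 ran from -0.60 to -0.30, that of Npr3 from 0.70 to 1.65, that of Ece1 from 0.09 to 0.45 and that of Edn1 from 0.03 to 0.28. The causes of these shifts were not tested. Averaging probe sets of a gene changes nothing here, since each measured gene has 1. The title numbers differ between all arrays, so they served as a numeric covariate and not as pairs. For the ratio that fit gave a difference with no test. The 3 arrays per strain and the low signals of Npr3, Gucy2c and the peptide genes limit the precision.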
